A study of Homo sapiens with 12 samples.

Results

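The MYC family and its MAX partners were followed in the alveolar rhabdomyosarcoma (ARMS) line Rh30 when the fusion protein PAX3-FKHR was stably lowered. The set comprised 8 genes, MYC, MYCN, MYCL1, MAX, MXD1, MXD4, MXI1 and MNT, taken by their gene names on the array, and these were represented by 17 of the 41000 gene probes. The cultures were untransfected parental Rh30 cells (WT), a control clone carrying a non-targeting short hairpin RNA (CON) and a knockdown clone carrying a hairpin against the fusion transcript (KD1). All 3 cultures carry the PAX3-FKHR fusion of the parental line. Both hairpins were delivered with the vector pSUPER.retro.puro, puromycin was present at 1 μg/mL in the clone cultures only, and RNA was extracted after 24 h of growth. Each culture gave 2 biological replicates, and CON and KD1 are 1 clone each, so that an effect of the knockdown and a difference of the clone cannot be told apart.

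MYC, MYCN and MYCL1 (now MYCL) encode the transcription factors c-Myc, N-Myc and L-Myc, which bind DNA as heterodimers with MAX at the E-box motif and drive ribosome production, metabolism and cell division. MXD1, MXD4, MXI1 and MNT encode proteins that also dimerise with MAX, occupy the same motif and recruit corepressors, so that MAX is the common partner of activators and repressors. MYCN is known as an amplified oncogene of neuroblastoma and is amplified in some ARMS tumours.

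The E-box bound by the MYC and MAD dimers with MAX has the letters CACGTG, which read the same on both strands. It was searched in RefSeq promoter windows of build GRCh38.p14, from 250 bases before to 50 after a start, because the members could themselves carry the motif their products bind. Of 35116 windows, 7.26% held it. Windows of 7 members were found, and those of MXD4 and MNT held 1 E-box each. The stretches around them, written 5′ to 3′ on the gene's strand with the E-box in capitals, were:
MXD4 (chr4:2262330-2262359, minus strand): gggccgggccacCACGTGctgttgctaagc
MNT (chr17:2401236-2401265, minus strand): ccctgcccgggcCACGTGtgcgcgcgccgg

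The MXD4 E-box starts at −238 and the MNT E-box at −193 relative to the annotated start. The windows of MYCN, MYCL1, MAX, MXD1 and MXI1 did not hold these letters.

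The 12 two-color Agilent arrays cover KD1 vs CON, KD1 vs WT and WT vs CON, each with 2 replicates hybridized as a dye-swap pair, a pair of arrays with the 2 dyes exchanged. They hold 6 RNA extracts on 4 arrays each, so that the comparisons with KD1 use common KD1 extracts. The arrays of the KD1 comparisons filled a slide for each replicate, so that the value of each replicate is also the value within a slide, and the WT vs CON arrays were on another slide. The share of spots well above background was 71.1% to 73.6% in the Cy3 channels and 64.4% to 67.8% in the Cy5 channels. Of 10 myogenic marker genes, 8 were well above background in all 24 channels, MYOD1 and DES among them. The cultures were not alike in all of these. For KD1 against CON and WT, MYOD1 had mean log2 ratios of 0.03 and 0.07 and DES 0.50 and 0.74. MYOG had −1.14 and 0.60, MYF5 −0.42 and −1.92, and MYH3 0.91 and 1.34. Of 5 markers of fusion-positive tumours, NOS1, FGFR4 and OLIG2 were above background in all 24 channels, CDH3 in 22 and TFAP2B in 0. Of 3 haematopoietic markers, CD3E and CD14 were above background in all 24 and PTPRC in 0. Of 4 endothelial markers, PECAM1 and VWF were in all 24, CDH5 in 8 and KDR in 0, and VWF had mean log2 ratios of 1.99 and 2.22 for KD1 against CON and WT. Of 4 epithelial markers, KRT14 was in all 24, whereas EPCAM, CDH1 and KRT5 were in 4, 2 and 1 of 8 WT channels and in 0 of the clones. The part of other cell types in the results was not tested. The brightest probes of PAX3 and FOXO1 (FKHR) had mean log2 ratios of −0.42 and −0.42 against CON and −0.39 and −0.60 against WT, with limma adjusted p between 0.273 and 0.433. These probes can detect the unrearranged genes, and whether they lie in the parts kept in the fusion was not checked. Values below are log2 ratios, of KD1 against CON, of KD1 against WT, or of WT over CON, averaged over the dye-swap pair, so that 1 is a 2-fold difference, and are given for replicates 1 and 2. The spread is between extracts of the same clone or line, and p-values measure only that spread. In bulk RNA, fewer cells with a transcript and less of it per cell cannot be told apart. Probe positions are those of the files on build NCBI36, and exon annotation of that build was not used here.

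No member probe passed an adjusted p of 0.05 by limma in any comparison. For KD1 against CON, 14 of the 17 probes were bright enough to be tested and 0 were called, against 393 of all 21950 probes tested (1.79%). The 3 probes left out were the dimmer ones of MYC, MYCL1 and MNT, and in the other comparisons that of MYC alone was. For KD1 against WT, 0 of 16 were called, against 1.04% of 24894 probes. For WT over CON, 0 of 16 were called, against 1.37% of 26617 probes. At an unadjusted p of 0.05 in the same limma fit, 4 member probes passed for KD1 against CON, 1 against WT and 2 for WT over CON, where 17.2%, 17.2% and 16.5% of all probes did. The mean log2 ratios of the tested member probes ranged around a median of 0.24 for KD1 against CON, 0.32 against WT and −0.05 for WT over CON, beside −0.01, 0.01 and −0.03 for all probes tested. An alternative fit by limma to the 12 single arrays with a dye effect per slide called 5 of 14, 6 of 16 and 2 of 16 member probes, beside 19.5%, 18.3% and 17.4% of all probes. Only the MYCL1 probe A_24_P156757, for WT over CON, had a mean beyond 2-fold among the tested member probes.

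**Figure D1:**
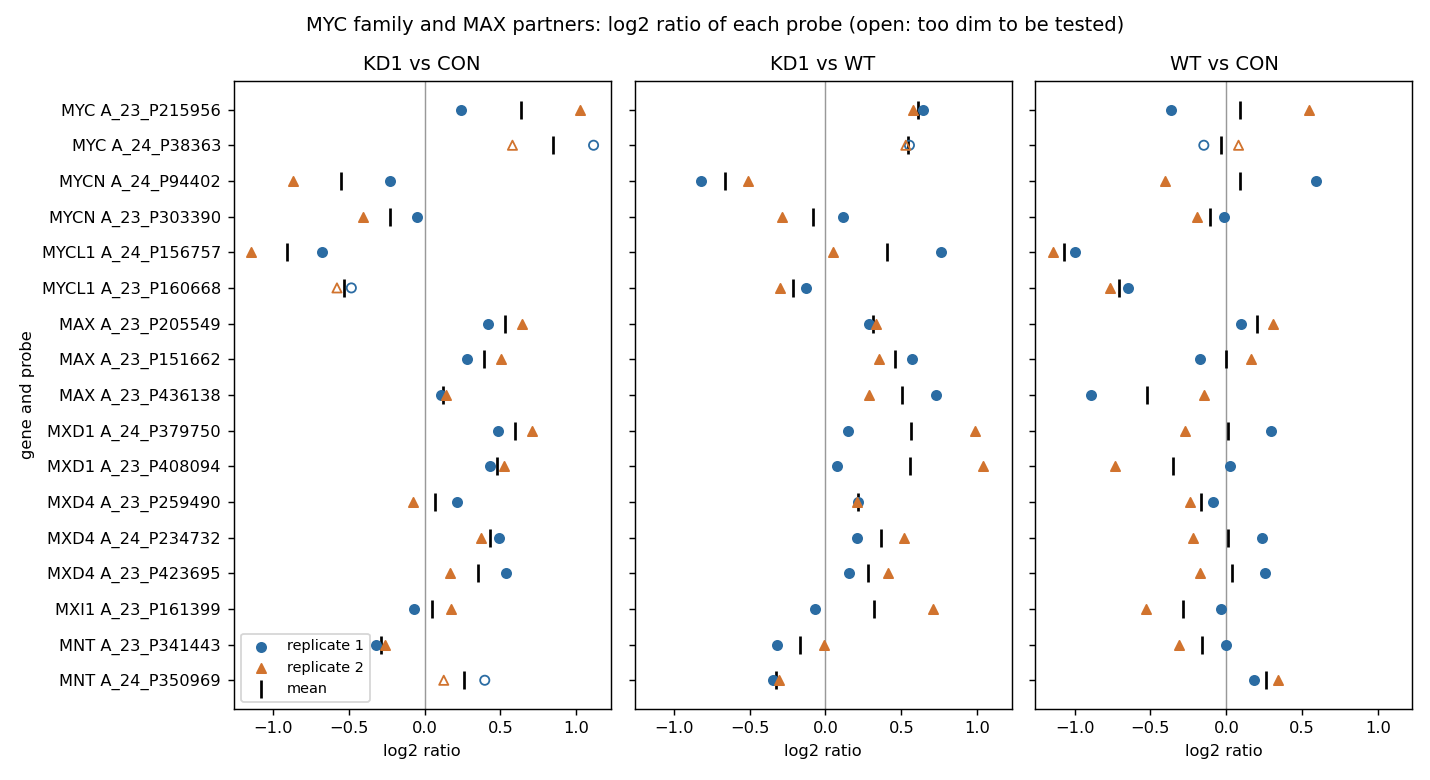
Log2 ratio (horizontal axis) of each of the 17 member probes (vertical axis) in the 3 comparisons, with replicate 1 as circles, replicate 2 as triangles, the mean as a black tick, and open symbols for probes too dim to be tested. MYC and MAX lie to the right of 0 and the brighter MYCN probe to the left in both KD1 comparisons, and both MYCL1 probes lie to the left for KD1 against CON and for WT over CON.

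In both replicates the MYC signal of KD1 exceeded those of CON and WT. The brighter MYC probe (A_23_P215956) had log2 ratios of 0.24 and 1.02 against CON and of 0.64 and 0.58 against WT. The means were 0.63 ± 0.55 (SD, n = 2) and 0.61 ± 0.05, a 1.55-fold and a 1.53-fold difference. Their 95% confidence intervals from limma were 0.03 to 1.24 and −0.01 to 1.23, with adjusted p of 0.270 and 0.302. For WT over CON the replicates went in opposite directions, with −0.37 and 0.54.

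On the single arrays, MYC was above 0 on 7 of the 8 KD1 arrays, with a lowest value of −0.12, a median of 0.63 and a highest of 1.27. The lowest and highest values came from the dye-swap pair of replicate 2 against WT, whose arrays differed by 1.38, whereas the median difference over the 6 pairs was 0.46. This pair was also discordant on other members, by 0.70 and 1.23 on the MYCL1 probes and 0.61 on MAX probe A_23_P151662. On MXD4 probes A_23_P259490 and A_23_P423695 its arrays differed by −0.68 and −0.72. On the brightest MAX and MXD1 probes they differed by only −0.14 and −0.09. The brighter MYC probe is spotted 10 times on the array. The SD of its log2 ratio between spots of an array was between 0.023 and 0.070, below the difference between the arrays of every dye-swap pair, which was at least 0.36. The other MYC probe (A_24_P38363) was well above background in 2 of 8 KD1 channels, 0 of 8 CON channels and 1 of 8 WT channels, and was not tested. Its ratios of 1.11 and 0.58 against CON and 0.55 and 0.53 against WT therefore rest on signals near background.

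MYCN was represented by a bright probe and a dimmer one. The brighter probe (A_24_P94402, chr2:16004218-16004277 on build NCBI36, plus strand) had log2 ratios of −0.23 and −0.87 against CON and of −0.82 and −0.51 against WT. All 4 replicate values were below 0, and 7 of the 8 KD1 arrays were, with a lowest value of −1.21, a median of −0.55 and a highest of 0.02. The means were −0.55 ± 0.45 (SD, n = 2) and −0.66 ± 0.22, a 1.46-fold and a 1.58-fold difference. The 95% confidence intervals were −1.16 to 0.07 and −1.29 to −0.03, with limma adjusted p values of 0.344 and 0.268. For WT over CON the replicates were again opposite, with 0.59 and −0.40.

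The second MYCN probe (A_23_P303390) spans 1264 bases of the genome between chr2:15998259 and 15999522, more than the 60 bases of most member probes, so that its target is not contiguous in the genome. It had log2 ratios of −0.05 and −0.41 against CON, 0.12 and −0.29 against WT, and −0.01 and −0.20 for WT over CON. Its mean of −0.08 ± 0.29 (SD, n = 2) against WT was within the spread of the replicates, with a 95% confidence interval of −0.58 to 0.41. The MYCN probes therefore disagreed on the size of the difference, although both were well above background in all 8 channels of each culture. On the brighter probe the arrays of a dye-swap pair differed by −0.69 to −0.49 in every pair, a dye difference of nearly constant size that cancels in the mean.

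When WT was compared with CON, the MYC and MYCN ratios had opposite signs in each replicate, and both signs turned from replicate to replicate. The log2 levels of MYC, on the scale of the normalized signal of an extract, were 12.87 and 13.11 in KD1, 12.64 and 12.001 in CON, and 12.28 and 12.56 in WT. Both KD1 extracts were above the other 4, and CON and WT overlapped. Those of the brighter MYCN probe were 12.30 and 12.60 in KD1, 12.54 and 13.51 in CON, and 13.17 and 13.07 in WT. The KD1 levels overlapped those of CON and lay below those of WT, and the CON extracts spread more than the others for both genes. With the brighter MYCN probe, the MYC ratio less the MYCN ratio was 0.47 and 1.89 in the replicates against CON, a mean of 1.18. Against WT it was 1.46 and 1.08, a mean of 1.27. On the single KD1 arrays it was above 0 on all 8, from 0.05 to 2.42. The dye-swapped array less its partner was 0.36 to 1.38 for MYC and −0.69 to −0.49 for MYCN. These dye differences are opposite, so that the range over single arrays includes a dye part. With the second MYCN probe the MYC ratio less the MYCN ratio was above 0 on 7 of the 8 arrays, from −0.02 to 1.74, and averaged 0.86 and 0.69. For WT over CON this difference was −0.96 in replicate 1 and 0.95 in replicate 2. The pair was chosen after the values were seen, and the difference was not tested or set beside that of other gene pairs.

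**Figure D2:**
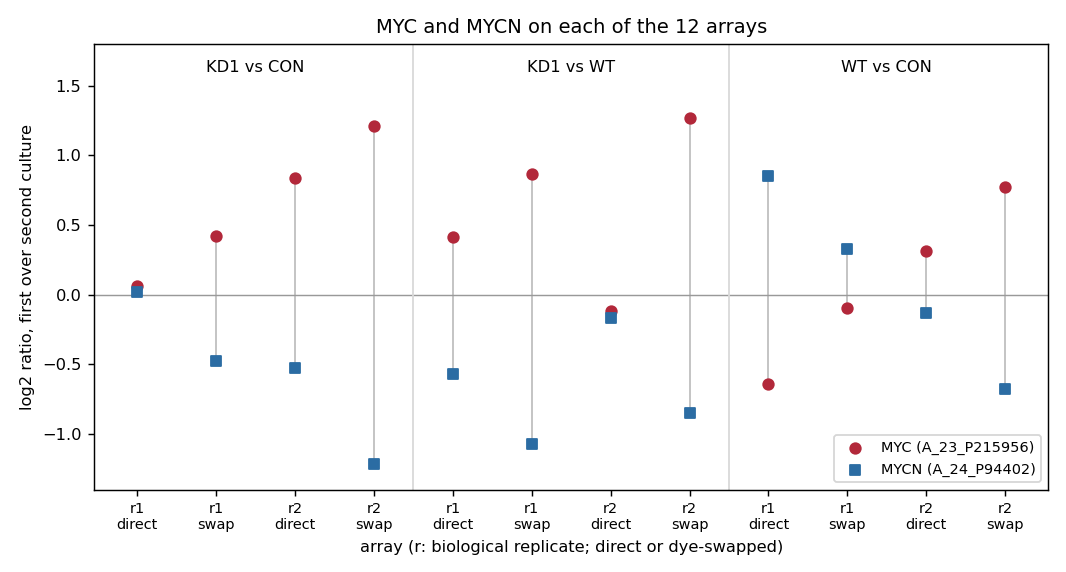
Log2 ratio (vertical axis) of the brighter probes of MYC (circles) and MYCN (squares) on each of the 12 arrays (horizontal axis), direct or dye-swapped, with a line joining both genes of an array. The brighter MYC probe lies above the brighter MYCN probe on all 8 KD1 arrays, by 0.05 to 2.42, and the order turns between the replicates for WT over CON. The dye differences of the probes are opposite, so that the gap is wider on each dye-swapped KD1 array than on its partner.

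The 3 genes with the replicate pattern most like that of MYCN, among 11890 genes tested in all comparisons, were TGFBR3, a co-receptor for TGF-beta, TBCD, a tubulin-folding cofactor, and KANK2, a cytoskeletal adaptor. Their root-mean-square differences from MYCN over the 6 replicate log2 ratios were 0.089, 0.099 and 0.101. TGFBR3 had mean log2 ratios of −0.52 against CON and −0.59 against WT, beside −0.55 and −0.66 for MYCN. The 6 values share extracts, and so large a number of genes leaves close matches to any pattern.

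MYCL1 differed in another way, with CON as the culture that stood apart. The brighter MYCL1 probe (A_24_P156757, chr1:40138100-40138159 on NCBI36, minus strand) had log2 ratios of −0.68 and −1.14 against CON and of −1.001 and −1.15 for WT over CON. All 8 arrays of these comparisons were below 0. The means were −0.91 ± 0.33 (SD, n = 2), a 1.88-fold difference, and −1.07 ± 0.10, a 2.10-fold difference. The 95% confidence intervals were −1.44 to −0.38 and −1.62 to −0.52, with limma adjusted p values of 0.104 and 0.084, the lowest among the member probes in those comparisons. With normexp background correction and loess, the means of this probe were −0.45 and −0.62, the same direction at a smaller size. For KD1 against WT the ratios were 0.76 and 0.05, a mean of 0.40 ± 0.50 with an adjusted p of 0.424. The log2 levels were 7.98 and 8.56 in CON, 7.47 and 7.52 in KD1, and 6.82 and 7.52 in WT, so that CON lay above the other cultures, which overlapped.

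The dimmer MYCL1 probe (A_23_P160668, chr1:40138940-40138999) also had its 2 highest extract levels in CON. Its ratios were −0.48 and −0.58 against CON, where it was too dim to be tested, and −0.65 and −0.77 for WT over CON. For WT over CON the mean was −0.71 ± 0.08 (SD, n = 2) with an adjusted p of 0.145 from limma. For KD1 against WT it had −0.13 and −0.30, opposite in sign to the brighter probe, so that no direction between KD1 and WT held across probes. Since WT carries no hairpin and was grown without puromycin, the difference between CON and WT involves the clone, the vector and the drug, which cannot be told apart.

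MAX, the obligate partner of the MYC proteins, gave ratios above 0 for KD1 against both other cultures with each of its 3 probes and in every replicate. For the dimmest of these probes, the single arrays against CON lay on both sides of 0. The brightest probe (A_23_P205549, chr14:64611756-64611815 on NCBI36, minus strand) had log2 ratios of 0.42 and 0.64 against CON and of 0.29 and 0.34 against WT. The means were 0.53 ± 0.16 (SD, n = 2) and 0.31 ± 0.03, and all 8 KD1 arrays were above 0, from 0.20 to 0.75. The adjusted p was 0.218 and 0.464 from limma, with 95% confidence intervals of 0.08 to 0.98 and −0.15 to 0.78. The log2 levels were 13.96 and 14.23 in KD1, 13.69 and 13.86 in WT, and 13.55 and 13.55 in CON, so that the 3 cultures did not overlap.

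The other MAX probes are assigned to different transcript accessions. A_23_P151662 (chr14:64630212-64630271) had 0.28 and 0.50 against CON and 0.57 and 0.35 against WT, and was also above 0 on all 8 KD1 arrays. A_23_P436138 (chr14:64620587-64620646) had 0.11 and 0.14 against CON and 0.73 and 0.29 against WT. Its values against CON are the means of −0.03 and 0.25 and of −0.05 and 0.32 on the arrays of the dye-swap pairs. Only 2 of these 4 arrays were above 0, and the mean of 0.12 had an adjusted p of 0.854 from limma. For WT over CON the probes disagreed, with means of 0.20 for A_23_P205549, −0.005 for A_23_P151662 and −0.52 ± 0.52 for A_23_P436138. Whether the probes follow different transcripts was not tested.

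**Figure D3:**
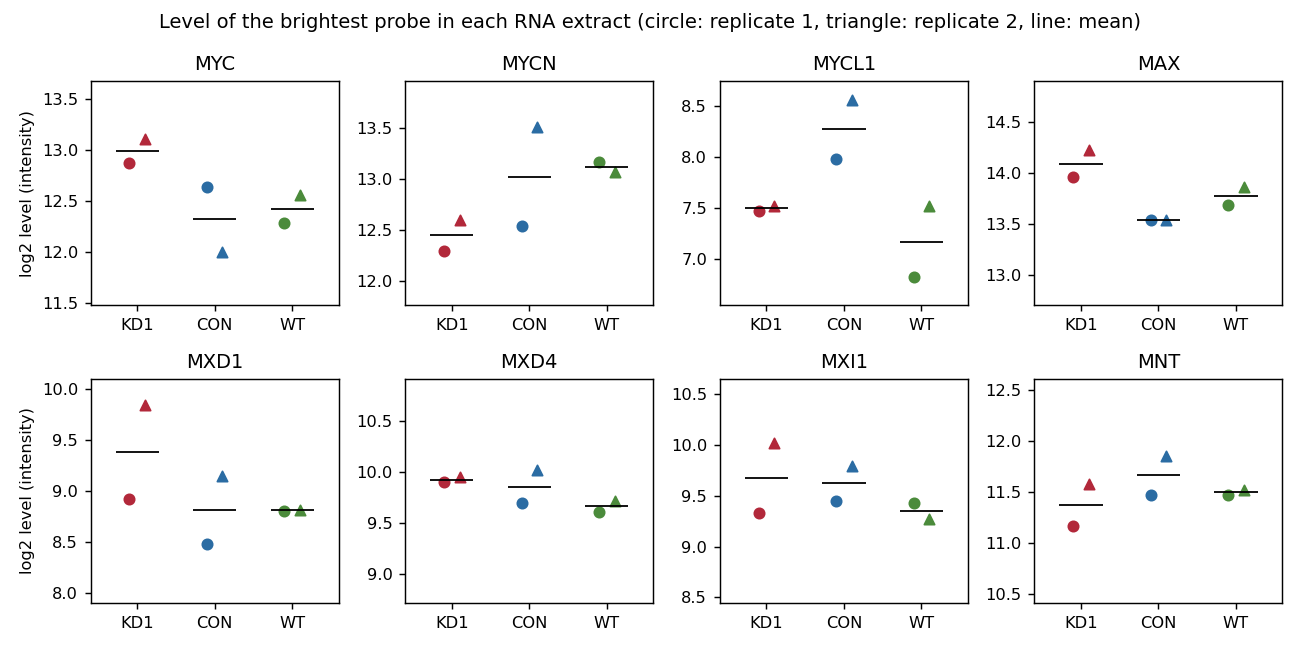
Log2 level of the brightest probe of each member (vertical axis, every panel spanning the same range) in the 2 extracts of KD1, CON and WT (horizontal axis), with replicate 1 as a circle, replicate 2 as a triangle and the mean as a line. Both KD1 extracts of MYC and MAX lie above the other 4, and both CON extracts of MYCL1 do, at 7.98 and 8.56.

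Among the MAX partners with repressor activity, MXD1 (also called MAD1), which is known to rise as cells stop dividing and differentiate, gave replicate ratios above 0 for KD1 with both probes. The brighter probe (A_24_P379750, chr2:70023388-70023447 on NCBI36, plus strand) had log2 ratios of 0.48 and 0.71 against CON and of 0.15 and 0.98 against WT. The means were 0.60 ± 0.16 (SD, n = 2) and 0.57 ± 0.59, with limma adjusted p values of 0.266 and 0.304, and all 8 KD1 arrays were above 0. The second probe (A_23_P408094), which spans 777 bases, had 0.43 and 0.53 against CON and 0.08 and 1.04 against WT. The second probe was above 0 on 6 of the 8 KD1 arrays, and its 1.04 is the mean of 2.21 and −0.13 on the arrays of a dye-swap pair, so that 1 array carries it. With both probes the value against WT was larger in replicate 2. The log2 levels of the brighter probe were 8.92 and 9.85 in KD1, 8.48 and 9.15 in CON, and 8.81 and 8.81 in WT, and the levels of KD1 and CON overlapped.

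MXD4, another member of the MAD group and 1 of the 2 with an E-box in its window, showed smaller differences. Its brightest probe (A_23_P259490), which spans 1221 bases, had log2 ratios of 0.22 and −0.07 against CON and 0.21 and 0.21 against WT. The replicate 2 value against WT is the mean of 0.55 and −0.13 on the arrays of its dye-swap pair. A_24_P234732 (chr4:2219557-2219616 on NCBI36, minus strand) had 0.49 and 0.37 against CON and 0.21 and 0.52 against WT. A_23_P423695 (chr4:2221078-2221137) had 0.54 and 0.17 and then 0.15 and 0.41, where 0.41 is the mean of 0.77 and 0.05. The latter 2 probes were above 0 on all 8 KD1 arrays and the brightest on 5 of 8, and the adjusted p of the 3 probes in the KD1 comparisons was between 0.338 and 0.909 from limma.

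MXI1, a MAD-group repressor named for its interaction with MAX, was measured by 1 probe (A_23_P161399, chr10:112035935-112035991 on NCBI36, plus strand). It had log2 ratios of −0.07 and 0.17 against CON and −0.07 and 0.71 against WT, so that the replicates did not share a direction. The 95% confidence interval of its mean of 0.05 against CON ran from −0.50 to 0.60.

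MNT, a widely expressed MAX-binding repressor and the other gene with an E-box, had a brighter probe (A_23_P341443, chr17:2234326-2234385 on NCBI36, minus strand) with log2 ratios of −0.32 and −0.26 against CON and −0.32 and −0.01 against WT. It was below 0 on 7 of the 8 KD1 arrays, and the means of −0.29 and −0.17 had adjusted p of 0.519 and 0.729 from limma. The dimmer probe (A_24_P350969, chr17:2239929-2239988), which is assigned to another accession, had 0.40 and 0.13 against CON, where it was not tested, and −0.35 and −0.30 against WT. The log2 levels of the dimmer probe were 5.70 and 5.71 in KD1 and 5.94 and 6.25 in CON, opposite in sign to its ratios against CON, so that no direction is given for it there.

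Across the arrays, 5 of the 14 member probes tested in both KD1 comparisons were above 0 on all 8 KD1 arrays, and these belonged to MAX, MXD1 and MXD4. Of all 21899 probes tested in both, 7.86% were above 0 on all 8, and 8.36% below, where no member probe lay. Both KD1 extracts were above the other 4 for 4 of the 14 member probes, those of MYC and MAX, and for 10.2% of 21894 probes, and below them for 0 member probes and for 10.5%. Both CON extracts were above the other 4 for 1 member probe, that of MYCL1, and for 12.6% of all probes, and below them for 1, a MAX probe, and for 11.1%. Both WT extracts were above the other 4 for 0 member probes and for 9.55% of all probes, and below them for 1, a MAX probe, and for 12.4%. Probes of a gene share their extracts and transcript, so that these counts are a description of 8 genes and not of independent units.

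The members were set beside their neighbours on the chromosome, the 3 nearest genes on each side that were tested in all comparisons, at most 3712 kb away, a comparison added after the values were seen. The 6 neighbours of MYCN had a median of the mean log2 ratios of 0.35 against CON and 0.22 against WT, whereas the brighter MYCN probe had −0.55 and −0.66. DDX1, an RNA helicase gene often co-amplified with MYCN, had 0.25 and −0.06, and NBAS had 0.45 and 0.01. MYCNOS, the antisense transcript at the MYCN locus, had −0.15 and −0.28. The MYC neighbours had medians of −0.18 and 0.002, beside 0.63 and 0.61 for MYC, and PVT1, the nearest on the right, had −0.29 and −0.05. The brighter probes of both genes lay outside the range of their neighbours in both KD1 comparisons, whereas the second MYCN probe, at −0.08 against WT, lay inside it there. The brighter MYCL1 probe, at −0.91 and 0.40, was also outside the range of its neighbours. These ran from −0.46 to 0.41 against CON and from −0.43 to −0.06 against WT, and the dimmer MYCL1 probe, at −0.21 against WT, lay inside.

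For MAX, MXD1, MXD4 and MNT, the medians of the neighbours were on the same side of 0 as the brightest probes of these members. Those of MAX had medians of 0.46 against CON and 0.36 against WT, beside 0.53 and 0.31 for the brightest MAX probe. RAB15 and CHURC1, on the left of MAX, had 0.86 and 0.56 against CON and 0.44 and 0.43 against WT. The neighbours of MXD1 had medians of 0.33 and 0.36, beside 0.60 and 0.57 for MXD1, and those of MNT had −0.18 and −0.22, beside −0.29 and −0.17 for its brighter probe. Those of MXD4 had 0.13 and 0.06, beside 0.07 and 0.21 for its brightest probe. The neighbours of MXI1 had 0.17 and −0.07, beside 0.05 and 0.32 for MXI1, so that the sides were opposite against WT. DNA copy number was not measured, and the part of chromosome position in these ratios was not tested.

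**Figure D4:**
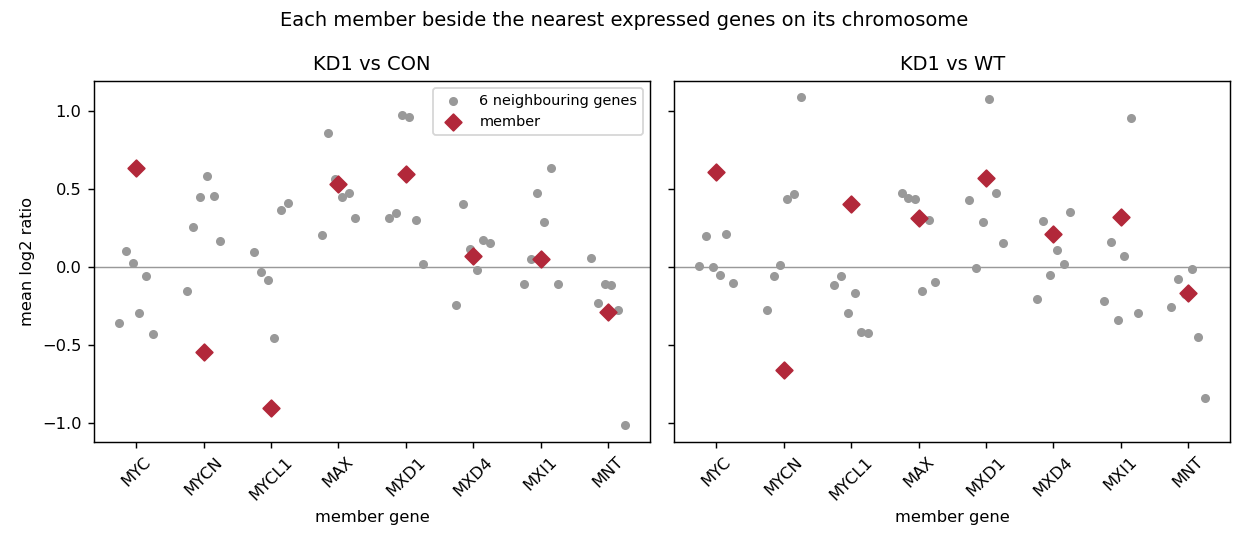
Mean log2 ratio (vertical axis) of the brightest probe of each member (diamonds) and of the 6 nearest expressed genes on its chromosome (gray points; all tested in every comparison) for KD1 against CON and against WT, by member (horizontal axis). These probes of MYC, MYCN and MYCL1 lie outside the range of their neighbours in both comparisons, whereas MAX and MXD1 lie among theirs. MYC lies above, MYCN below, and MYCL1 below against CON and above against WT.

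The other genes of the network were considered with the same fit. Among 7 further genes that bind MAX, MLX or MYC (MXD3, MGA, MLX, MLXIP, MLXIPL, MYCBP and MYCBP2), 0 were called in the KD1 comparisons by limma. An unadjusted p under 0.05 was found for 2 and 0 of them, beside 17.7% and 16.5% of all genes. For KD1 against CON, 1.16% of all genes were called lower and 0.898% higher, and against WT 0.993% and 0.326%. MYCBP2, an E3 ubiquitin ligase that binds MYC, was called higher in WT than in CON, where 0.578% of all genes were called lower and 1.02% higher. Its log2 ratios were 1.91 and 1.13 for WT over CON, with a mean of 1.52 ± 0.55 (SD, n = 2) and an adjusted p of 0.038 from limma, and 1.24 and 0.94 for KD1 against CON, with an adjusted p of 0.074. The call for WT over CON held in 5 of 10 limma fits, with adjusted p up to 0.131. For KD1 against WT it had −0.74 and −0.26. CON thus had the lower MYCBP2 signal in both of its comparisons, and the higher MYCL1 signal, although no MYCL1 probe was called. MYCBP2 was not set beside its neighbours on the chromosome, and a link between these differences was not tested.

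MXD3, the MAD-group member linked to cycling cells, had −0.34 and −0.94 against CON and −0.57 and −0.38 against WT, with limma adjusted p values of 0.223 and 0.363. All 4 values were below 0, opposite to those of MXD1. MGA, a dual-specificity MAX partner, had means of 0.22 and −0.37 in these comparisons. MLX, the MAX-like partner of the Mondo proteins, had 0.11 and 0.17. The Mondo genes MLXIP and MLXIPL had −0.33 and 0.07, and 0.04 and −0.05. MYCBP had −0.41 ± 0.37 (SD, n = 2) and −0.54 ± 1.40, and its replicates against WT were opposite.

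Of 28 measured genes for MYC cofactors and MYC protein turnover, such as TRRAP, RUVBL1 and FBXW7, 26, 27 and 27 were tested for KD1 against CON, KD1 against WT and WT over CON, and 0 were called by limma. Their medians were −0.11, −0.08 and −0.01, beside −0.02, −0.001 and −0.02 for all genes tested. At an unadjusted p under 0.05, 3, 4 and 6 of them passed, beside 17.7%, 16.5% and 15.7% of all genes.

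The lists of genes known to be activated by MYC had medians near 0 and no called gene. Of 37 measured target genes of ribosome biogenesis, such as NCL, NPM1 and FBL, 0 were called by limma in any comparison. An unadjusted p under 0.05 was found for 2, 1 and 2 of them in these 3 comparisons, in that order, beside 17.7%, 16.5% and 15.7% of all genes. Their median log2 ratio was 0.08 against CON, with values from −0.59 to 0.50, and −0.07 against WT, from −0.71 to 0.56. Of the 50 target genes of translation, metabolism and growth, such as ODC1, LDHA and CAD, 0 were called by limma. At an unadjusted p under 0.05, 5, 2 and 9 passed, beside the same shares of all genes. The fit to the 12 single arrays called 11 of 86, 5 of 87 and 12 of 87 genes of both lists together, beside 21.2%, 19.4% and 18.2% of all genes. The medians of the second list were 0.06 against CON, −0.02 against WT and 0.13 for WT over CON. Over both lists, 60.5% of the tested genes had a mean above 0 for KD1 against CON, 44.8% for KD1 against WT and 60.9% for WT over CON, beside 48.0%, 49.8% and 47.1% of all genes. KD1 against CON and WT over CON use the same CON extracts, so that their shares are not independent. The part of the knockdown in them was not tested.

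Of 23 genes known to be repressed by MYC, 20 were tested in each comparison. For KD1 against CON, 15 (75%) had a mean above 0 and 5 below, with a median of 0.26. Against WT 8 (40%) were above and 12 below, with a median of −0.15. Of all genes tested, 48.0% and 49.8% had a mean above 0 in these comparisons. Between WT and CON, 14 (70%) were above and 6 below, with a median of 0.33, beside 47.1% of all genes above 0. This comparison uses the same CON extracts as KD1 against CON, so that these 2 counts are not independent. CEBPD, a transcription factor linked to growth arrest, was called lower in KD1 than in CON, with log2 ratios of −1.32 and −1.53 and an adjusted p of 0.018 from limma, and also lower in WT than in CON, with −1.13 and −1.25 and an adjusted p of 0.043. The first of these calls held in 9 of 10 fits, with an adjusted p of 0.056 for separate channels, and the second in 6 of 10, with adjusted p up to 0.110. For KD1 against WT 0 of the 20 were called by limma. At an unadjusted p under 0.05, 7, 9 and 7 passed for KD1 against CON, KD1 against WT and WT over CON, beside 17.7%, 16.5% and 15.7% of all genes.

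**Figure D5:**
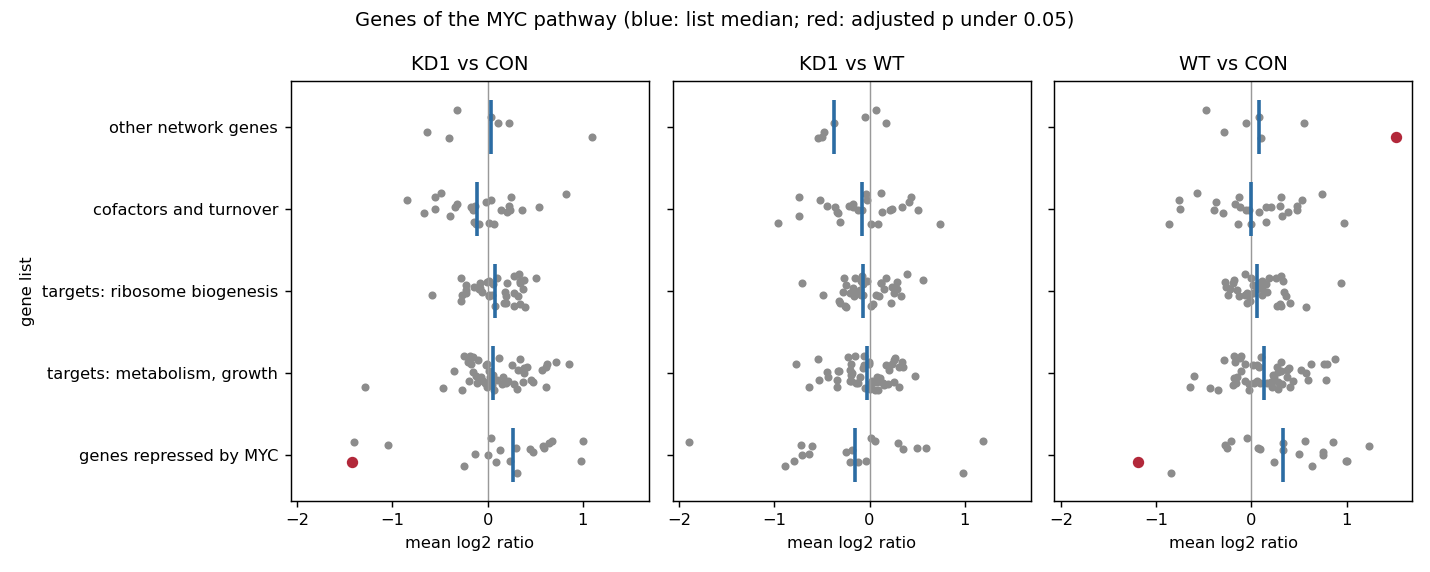
Mean log2 ratio (horizontal axis) of each tested gene of 5 MYC-related lists (vertical axis) in the 3 comparisons, with a blue line at the list median and red points for genes with an adjusted p under 0.05. The red points are CEBPD for KD1 against CON, and MYCBP2 and CEBPD for WT over CON.

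The E-boxes in the MXD4 and MNT windows, shown above, were set beside the ratios. The brightest probes of MXD4 and MNT had mean log2 ratios of 0.07 and −0.29 against CON and 0.21 and −0.17 against WT, in opposite directions. Of 70 genes of the MYC target lists with a window, 47.1% held an E-box in at least 1 window, beside 8.77% of all 27305 genes. The latter include genes not tested on the array, so that the groups are unlike. Among genes tested for KD1 against CON, 1217 had an E-box and 8449 did not. Genes with an E-box had a median log2 ratio of 0.02 against CON (1217 genes) and 0.03 against WT (1277 genes). Genes without one had −0.01 and −0.003, so that the medians of both groups lay within 0.04 of 0. A match is a description of these windows and not a measured binding site.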

How the data were processed

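The authors extracted the spots of each array with Agilent Feature Extraction 10.5.1.1 and deposited linear intensities per spot, background-subtracted and lowess-normalized within the array. Red-to-green ratios of these intensities were deposited by the authors on the log10 scale, together with a series table with the same ratio on the log2 scale, per the file headers and values. In both, the depth of a measurement is limited by the number of arrays. The members and lists were chosen with earlier results of these data known.

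Log2 ratios were computed from the processed intensities, turned to the first culture of a comparison, averaged over a probe's spots after removal of flagged outliers, and then over the dye-swap pair. A probe was tested where its signal exceeded the 99th percentile of 153 negative controls in 1 or both channels on each array of that comparison. limma 3.58.1 (lmFit, eBayes; R 4.3.3) was fitted to 6 replicate values, 1 coefficient for each comparison, with the residual degrees of freedom set to 2 in place of the 3 that lmFit counts, because 3 extracts make up all comparisons of a replicate; p-values were Benjamini-Hochberg adjusted over all probes tested. On simulated data with this spread the fit called none of the 2-fold changes and only part of larger ones, so that an absence of calls does not show an absence of such differences. Each replicate value compares extracts of the same replicate number on the same arrays, so the pairing comes from the hybridizations. Log2 levels per extract are separate-channel values after Aquantile normalization, averaged over 4 arrays. A gene of a list is its brightest probe, and 1 gene of the list of genes repressed by MYC and 1 marker gene are not reported here. All member probes are named, the called genes of each list (at most 4 per list and comparison), all other network genes, and for MYCN the 3 genes with the most similar replicate values. Symbols were matched to RefSeq names of GRCh38.p14 (15742 current and 2508 earlier symbols), whose coordinates were used for promoters only. Tables were made in Python 3.11.15 (pandas 2.3.3, numpy 2.4.6, scipy 1.17.1) and figures with matplotlib 3.10.9. Alternatives tried were normexp with an offset of 50 and loess, median centring, the series table, no filter on dim probes, a filter on spots well above background, separate channels without the replicate block, extract values with it, all 12 arrays with a dye effect per slide, the degrees of freedom of lmFit (chosen after seeing the data), each replicate left out, and the mean over all probes of a gene.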

Additional observations from a re-analysis of the deposited data

Results flagged for a closer look

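The mean of MYCL1 (A_24_P156757) was on opposite sides of 0 when KD1 was set against each reference culture. Its mean log2 ratio was −0.91 against CON and 0.40 against WT, and this difference between the comparisons was not tested. The replicate values were −0.68 and −1.14 against CON and 0.76 and 0.05 against WT, so that the value against WT came mostly from replicate 1. The 0.05 is the mean of −0.30 and 0.40 on the arrays of a dye-swap pair, and shows no direction. In replicate 1 the ratio against CON, less those of KD1 against WT and WT over CON, was −0.43 in place of 0. The median absolute value of this remainder was 0.04 for the brightest member probes. The second MYCL1 probe (A_23_P160668) was below 0 against both cultures, with means of −0.53 and −0.21.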

How the results depend on the processing

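Of the 10 limma fits, 9 called 0 member probes and 0 MYC target genes in each comparison. The fit to all 12 arrays with a dye effect per slide, which keeps the arrays of a dye-swap pair as a random block but treats arrays that share an extract as separate, called 5 member probes for KD1 against CON, 6 against WT and 2 for WT over CON, and 11, 5 and 12 MYC target genes, where 19.5%, 18.3% and 17.4% of all probes were called. The member probes were those of MAX, MXD1, MXD4 and MYCL1 against CON, of MAX, MXD1, MXD4 and MYCN against WT, and of MAX and MYCL1 for WT over CON. Extract values with the replicate block called 0 member probes, with a lowest adjusted p of 0.161, 0.295 and 0.110 in the 3 comparisons. Separate channels without this pairing called 0, with 0.248, 0.312 and 0.198. The brightest probe of each of the 8 members kept its direction in both KD1 comparisons in all 10 fits. Fits that change only the filter or the degrees of freedom keep the mean ratios, so these are not 10 separate estimates. For MXD4 and MXI1 against CON the means were only 0.03 to 0.07 and 0.006 to 0.05, with replicates on opposite sides of 0. With the degrees of freedom of lmFit, an alternative chosen after seeing the data, 381, 151 and 233 of all probes were called in place of 393, 259 and 365, and MYCBP2 for WT over CON had an adjusted p of 0.063. Directions turned for values near 0 of WT over CON. With median centring, MYC was −0.0407, MYCN −0.0365 and MXD1 −0.0579, and the median of all genes moved from −0.02 to −0.10. MXD1 was −0.00132 with normexp and loess and −0.0031 with separate channels. The mean over all tested probes of a gene in place of its brightest turned 4 members for WT over CON, MAX to −0.11, MNT to 0.05, MYCN to −0.0061 and MXD1 to −0.17. It moved MYCN from −0.66 to −0.37 and MYCL1 from 0.40 to 0.09 for KD1 against WT, and MXD4 from 0.07 to 0.28 and MAX from 0.53 to 0.35 for KD1 against CON, and MXD4 from −0.16 to −0.04 for WT over CON. With 1 replicate left out, each value is that of the other replicate, with no test and no count of calls, so that for KD1 MXD4 and MXI1 turn direction against CON, and MXI1 against WT.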
